A study of Mus musculus with 20 samples.

Results

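Crypts of mice lacking Xiap were compared with those of wild-type mice in the part of the study in which each genotype was kept apart. Crypts are the epithelial pits of the small intestine, where stem cells divide and Paneth cells secrete antimicrobial proteins. The libraries were chosen by their column names in the deposited table, those of Xiap-/- mice 1 to 4 and wild-type mice 1 to 6 that carry no mark of co-housing, and make up 10 of the 20 libraries of the series. All mice were C57BL/6. The other 10 libraries came from 5 wild-type and 5 Xiap-/- mice that had shared cages for 4 weeks. Sequencing covered the 3' end of each poly(A) RNA, and molecular tags (UMIs) let copies of 1 molecule be counted once. The values are normalized levels on a log2 scale, so that a difference of 1 is a doubling, and all levels and differences below are on that scale. Of the 23020 genes in the table, the 9521 with a mean over the 20 libraries of at least log2 of 10 were tested. The labels name no age, sex or cage and say neither which part of Xiap was removed nor whether in all cells of the mouse. The p-values measure the spread between mice, which are taken as independent although cage mates may not be.

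XIAP is an inhibitor of caspases and a ubiquitin ligase that links receptors of the TNF family and the peptidoglycan sensor NOD2 to NF-kB signalling. In the intestinal epithelium these routes bear on cell death at the crypt base and on the response to bacteria. Paneth cells and enterocytes answer bacteria with secreted lectins and oxidants, while the enzymes of enterocytes break down fats, drugs and reactive compounds taken in with food.

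The Xiap transcript (chromosome X, 42059679 to 42109656, GRCm38) was still read in the Xiap-/- libraries. It lay at 6.48, 6.37, 6.43 and 6.25 in Xiap-/- mice 1 to 4 and between 6.56 and 7.08 in wild-type mice, with a median of 6.79. The groups did not overlap, and the means differed by -0.43 (exact permutation p = 0.00476, two-sided, the smallest that 210 splits allow). In the fit across all genes the difference did not pass (limma adjusted p = 0.0599, and 0.796 with the depth proxy described below as covariate), and in co-housed mice it was -0.05 (exact permutation p = 0.683). A read at the 3' end may lie outside the removed part, so this level does not check the genotype. Defining markers of other tissues were few above the minimum: 1 of 13 stromal and endothelial genes (Vim), 1 of 10 pancreatic acinar genes (Cela1), 1 of 9 hepatocyte genes (Ttr) and 4 of 17 myeloid and mast cell genes. Lymphocyte transcripts were present, with 16 of 21 T cell genes and 4 of 10 B and plasma cell genes above the minimum. The protocol text names liver for RNA extraction, and the 8 other hepatocyte genes were below the minimum. Correlations between the 20 libraries ran from 0.973 to 0.996.

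A technical measure moved with genotype. Depth per library is unknown, and its proxy was the share of 1854 rare genes (mean below -3) that stood more than 0.015 above their own median. The share was 7.55%, 5.39%, 7.17%, 6.69%, 14.9% and 4.58% in wild-type mice 1 to 6 and 10.1%, 32.1%, 9.55% and 16.6% in Xiap-/- mice 1 to 4. Wild-type mouse 5 lay within the Xiap-/- range, and the other 5 wild-type mice lay below it. The means, 7.71% ± 3.69 (SD, n = 6) and 17.1% ± 10.5 (SD, n = 4), differed by an exact permutation test (p = 0.0333, two-sided), and without Xiap-/- mouse 2 the p was 0.131. With this share as a covariate in the fit, all 43 differences that passed kept their sign, at 0.597 to 1.12 of their size, and 3 of the 43 still passed. These were Aqp8 (0.99, limma adjusted p = 0.0034), Ces1d (0.77, adjusted p = 0.0018) and Gm3776 (0.85, adjusted p = 0.0034).

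Of the 9521 genes, 43 (0.452%) passed a limma test at a Benjamini-Hochberg adjusted p under 0.05. In Xiap-/- crypts 28 of them (0.294%) were higher and 15 (0.158%) lower. An unadjusted p under 0.05 was reached by 1506 genes (15.8%), 745 higher and 761 lower, and 49.1% of all differences were above 0. That 15.8% is the share to set beside the counts at an unadjusted p given for gene lists below. The rises ran from 0.35 to 1.12 and the falls from -0.35 to -0.87. The genes that rose include enzymes that act on lipid esters, drugs, alcohols and retinal, glutathione transferases, a water channel and a cytochrome c oxidase assembly factor. Those that fell include enzymes of peroxide removal and of cholesterol synthesis, the IgA transporter and a kinase induced by cytokines. Xiap-/- and wild-type values did not overlap for 26 of the 43 genes, 16 that rose and 10 that fell, and for 178 of all genes tested (1.87%; 0.819% with Xiap-/- mice above and 1.05% with them below). The 43 were picked for their difference in these same mice, so their higher share adds no support.

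**Figure D1:**
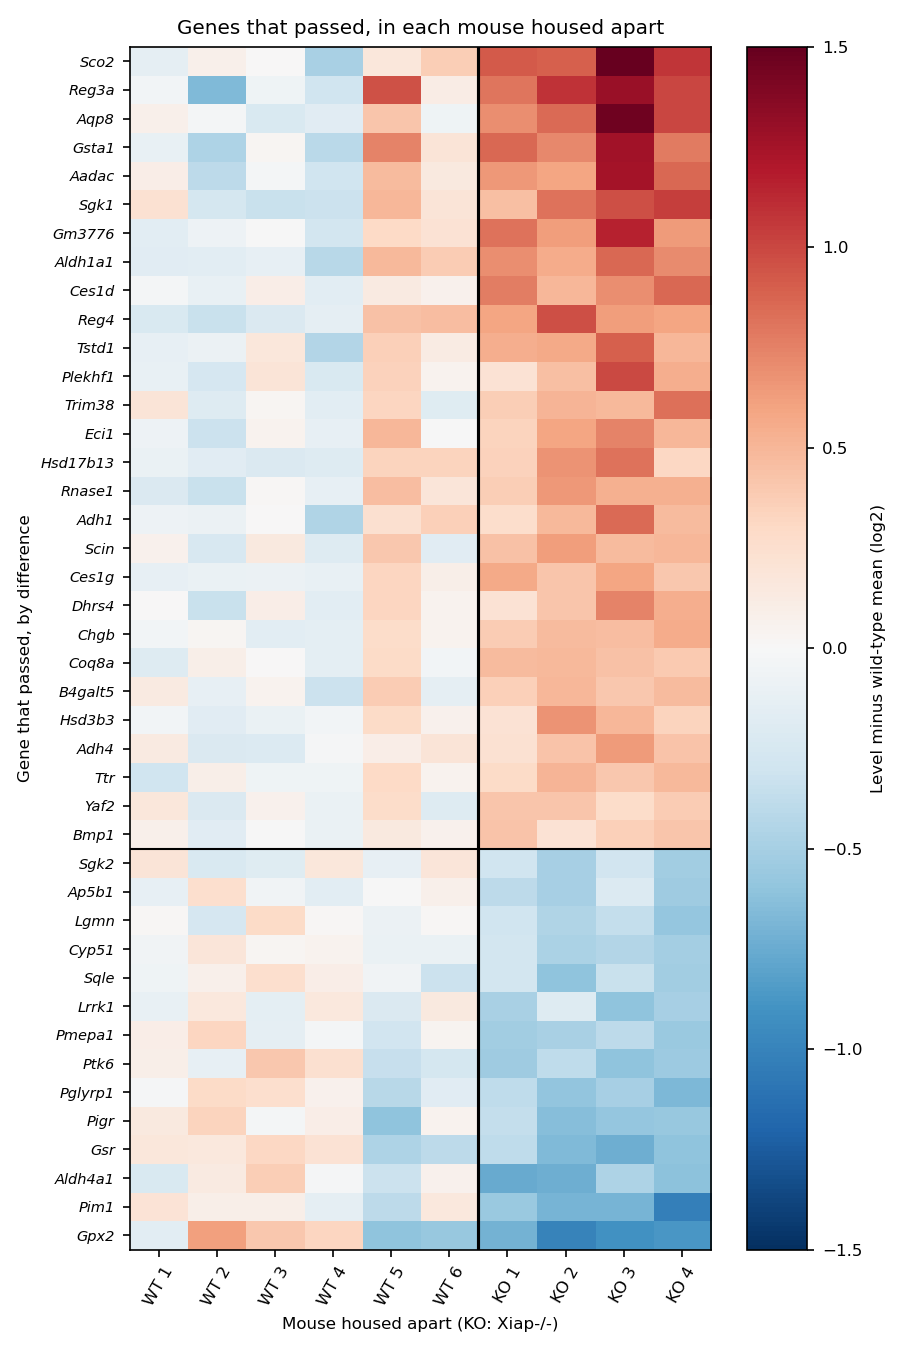
Level of 42 of the 43 genes that passed (rows, ordered by difference) in each mouse housed apart (columns), as the log2 level minus the mean of the 6 wild-type mice; red is higher and blue lower. The column of wild-type mouse 5 is pale red for most genes that rose and blue for many that fell, while Xiap-/- mice 1 to 4 are coloured throughout.

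Single mice weighed on these counts. Wild-type mouse 5 was the wild-type mouse nearest to the Xiap-/- values for 32 of the 43 genes (23 that rose and 9 that fell), and mouse 6 for 7. Averaged over the 28 genes that rose, the wild-type mice lay at 5.95, 5.80, 5.96, 5.77, 6.35 and 6.09 and the Xiap-/- mice at 6.48, 6.58, 6.76 and 6.60. Over the 15 that fell, the wild-type mice averaged 6.70, 6.83, 6.80, 6.75, 6.42 and 6.62 and the Xiap-/- mice 6.25, 6.13, 6.19 and 6.08. The separation of these averages is no added support, because the genes were picked with the same mice. Without wild-type mouse 5, 697 genes passed (385 higher and 312 lower), among them all 43, whose differences were then 1.00 to 1.22 times as large. Without Xiap-/- mouse 2, 3 or 4 the count was 9, 10 or 11, and without wild-type mouse 1, 2 or 4 it was 13, 12 or 11. It was 28 without wild-type mouse 3, 67 without mouse 6 and 28 without co-housed Xiap-/- mouse 1. Aqp8, Ces1d, Ces1g, Aadac, Pim1 and Gm3776 passed in each of the 20 fits that leave out 1 library, and 15 of the 43 passed in fewer than 10 of them. Sco2 passed in 19 of the 20, Pglyrp1 in 16, Cyp51 and Reg4 in 15, Eci1 and Gsr in 14, Gpx2 in 12, Aldh1a1 in 8, Reg3a and Sgk1 in 7, Gsta1 in 5, Sqle in 3 and Pigr in 2. The spread was wider among wild-type mice, with a median SD over all tested genes of 0.171 against 0.124 in Xiap-/- mice.

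**Figure D2:**
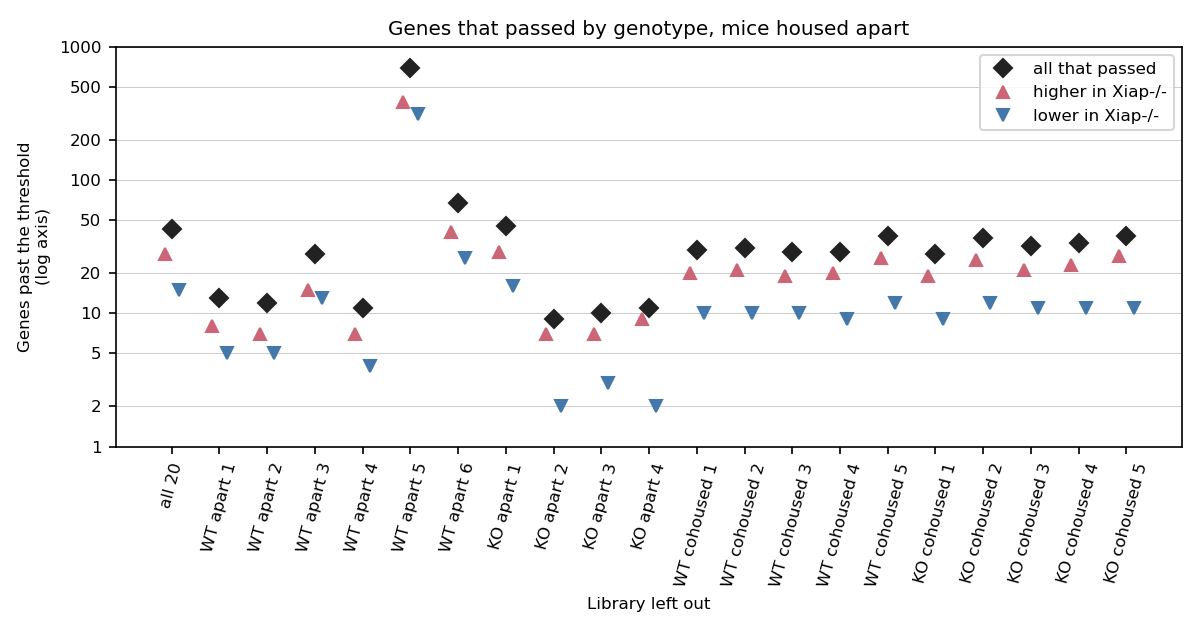
Number of genes that passed for genotype in mice housed apart (vertical axis, log scale) with all 20 libraries and with each library left out in turn (horizontal axis; KO is Xiap-/-). Diamonds give all genes, triangles those higher or lower in Xiap-/- mice; the count runs from 9 without Xiap-/- mouse 2 to 697 without wild-type mouse 5.

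Sco2 rose most. Its product carries copper to cytochrome c oxidase, the last complex of the respiratory chain. Wild-type mice lay at 6.61 to 7.47 (median 7.14) and Xiap-/- mice at 8.02, 7.99, 8.68 and 8.17, so the groups did not overlap (difference 1.12 ± 0.19 SE, limma adjusted p = 0.0164). Among 17 measured genes of cytochrome c oxidase assembly, Sco2 alone passed, and the list's median difference was 0.03. Coa3, which stabilizes an early intermediate of the complex, had a difference of 0.45 ± 0.12 (adjusted p = 0.0655), and Surf1 one of 0.26 ± 0.10. All 8 measured genes encoded in mitochondrial DNA had differences below 0 (median -0.28), and none passed (3 at an unadjusted p under 0.05). mt-Nd4, a subunit of complex I, had a difference of -0.40 ± 0.15 (adjusted p = 0.197).

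The reads of Sco2 may be shared with a neighbour. Sco2 (chromosome 15, 89371637 to 89373846, minus strand) contains the 3' end of Tymp, thymidine phosphorylase, which ends at 89371931 on the same strand. Tymp, chosen after its values were seen, lay at 3.97 to 4.18 (median 4.04) in wild-type mice and at 4.78, 5.22, 5.04 and 5.28 in Xiap-/- mice. Its difference of 1.03 ± 0.28 did not pass (limma adjusted p = 0.106), although the groups did not overlap. How much of either value comes from reads of the other gene was not tested. Ncaph2, which overlaps Sco2 on the opposite strand, had a difference of -0.00 to the nearest hundredth.

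The water channel Aqp8, which passes water and hydrogen peroxide across membranes, had one of the smallest adjusted p-values. It lay at 3.72 to 4.36 (median 3.90) in wild-type mice and at 4.64, 4.79, 5.41 and 4.95 in Xiap-/- mice (genotype difference 1.00 ± 0.13, limma adjusted p = 8.0e-05). Sgk1, a kinase induced by steroid hormones that raises sodium uptake, rose by 0.82 ± 0.18 (adjusted p = 0.0492). Sgk1 lay at 6.71 to 7.54 in wild-type mice and at 7.50, 7.86, 8.01 and 8.08 in Xiap-/- mice, which overlap at wild-type mouse 5. Its relative Sgk2 went the other way, with a difference of -0.40 ± 0.10 (adjusted p = 0.0492). The remaining 16 of 19 measured genes of water and ion transport did not pass, and the list's median was -0.03. The aquaporins Aqp11 and Aqp3 each had a difference of 0.29.

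Ces1d, Ces1g and Aadac rose among the enzymes that split lipid esters and modify drugs. Of 23 measured members, 22 had a difference above 0 (49.1% over all genes), the median was 0.35 against -0.00 over all genes, 3 rose and 20 did not pass. Ces1d, a carboxylesterase of triglycerides and drugs, lay at 3.86 to 4.15 (median 4.03) in wild-type mice and at 4.78, 4.51, 4.71 and 4.88 in Xiap-/- mice. Its difference was 0.70 ± 0.09 (limma adjusted p = 8.0e-05), and its highest wild-type value was again that of mouse 5. Ces1g, a related esterase 104.5 kb away on chromosome 8, lay at 3.12 to 3.56 in wild-type mice and at 3.80, 3.65, 3.82 and 3.63 in Xiap-/- mice (0.49 ± 0.09, adjusted p = 0.00495). The mean of Ces1g over the 20 libraries, 3.38, was just above the minimum of 3.32. Its wild-type means, 3.23 apart and 3.26 co-housed, were below it, so Ces1g was tested only through the Xiap-/- mice. The transcripts of Ces1d and Ces1g are 79.2% identical where they align. In their last 300 bases only 35 bases align, 25 of them identical. Aadac, a microsomal deacetylase, lay at 7.19 to 8.05 (median 7.61) in wild-type mice and rose to 8.22, 8.17, 8.82 and 8.43 (0.83 ± 0.14, adjusted p = 0.00472). None of the 3 genes overlapped between genotypes.

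Other members of that list stayed short of the threshold. The arachidonate epoxygenase Cyp2j6 lay at 7.14 to 8.21 in wild-type mice and at 8.30, 8.30, 8.42 and 8.32 in Xiap-/- mice, without overlap (difference 0.62 ± 0.17, limma adjusted p = 0.0848). The glucuronosyltransferase Ugt2b36 had a difference of 0.38 ± 0.11 and the esterase Ces1f one of 0.35 ± 0.11. Transcripts of absorptive cells as such, 24 genes from Alpi to Mgam, had a median difference of 0.07, and by limma none passed (1 higher and 3 lower at an unadjusted p under 0.05). Their mean ran from 10.02 to 10.73 in wild-type mice and from 10.29 to 10.66 in Xiap-/- mice, so the ranges overlapped. Wild-type mice 5 and 6 had the highest wild-type means, 10.63 and 10.73, and mice 2 and 4 the lowest, 10.02 and 10.03. In bulk RNA, fewer cells of a type and less RNA per cell cannot be told apart, here and in the groups that follow. With the mean of this absorptive list as a covariate, an alternative added after seeing the data, all 43 genes passed, at 0.943 to 1.03 of their size.

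Glutathione transferases, which couple glutathione to electrophiles and lipid peroxides, showed the same direction in each of 17 measured members (median 0.35, 2 rose). Gsta1 lay at 7.12 to 8.32 (median 7.54) in wild-type mice and at 8.43, 8.30, 8.84 and 8.36 in Xiap-/- mice. The groups touched at wild-type mouse 5 (difference 0.91 ± 0.19, limma adjusted p = 0.0459). Gm3776, a predicted gene next to it, lay at 4.00 to 4.57 (median 4.24) and at 5.09, 4.90, 5.43 and 4.92, without overlap (0.81 ± 0.11, adjusted p = 0.00015). Gsta4, Gstt1 and Gstm6 had differences of 0.73 ± 0.18, 0.53 ± 0.17 and 0.40 ± 0.14, and none of them passed.

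Gsta1 (chromosome 9, 78230656 to 78242684) and Gm3776 (chromosome 9, 78257129 to 78269166) lie 14.4 kb apart on the plus strand. Their annotated transcripts are identical at 870 of 874 aligned bases, and at 298 of 299 in the last 300 bases, where these libraries are read. How reads were assigned between the copies is not given in the sources used here, so the value of each copy is uncertain, and how much of it comes from reads of the other was not tested. The 250 bases before each start are shown because the copies also share this stretch (284 of 287 aligned promoter bases are identical). They were taken from RefSeq on GRCm38.p6, at chr9:78230419-78230668 and chr9:78256879-78257128, plus strand, and capitals mark the letters TTCNNNGAA, a STAT site.

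Gsta1: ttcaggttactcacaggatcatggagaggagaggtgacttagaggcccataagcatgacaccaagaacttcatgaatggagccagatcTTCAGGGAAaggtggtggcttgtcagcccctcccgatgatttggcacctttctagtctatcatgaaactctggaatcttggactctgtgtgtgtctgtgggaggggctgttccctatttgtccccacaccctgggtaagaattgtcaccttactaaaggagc

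Gm3776: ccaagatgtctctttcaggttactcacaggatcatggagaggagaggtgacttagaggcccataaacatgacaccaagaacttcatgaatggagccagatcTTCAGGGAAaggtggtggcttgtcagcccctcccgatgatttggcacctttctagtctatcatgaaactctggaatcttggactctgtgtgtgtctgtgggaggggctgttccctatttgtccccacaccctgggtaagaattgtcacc

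Gpx2 and Gsr, which remove peroxides with glutathione and restore it, fell. Gpx2, the glutathione peroxidase of the gut epithelium, lay at 9.48 to 10.70 (median 10.17) in wild-type mice and at 9.38, 9.08, 9.17 and 9.22 in Xiap-/- mice (genotype difference -0.87 ± 0.18, limma adjusted p = 0.0346). The groups did not overlap, although wild-type mice 5 and 6, at 9.48 and 9.51, lay near the Xiap-/- mice. Glutathione reductase, Gsr, lay at 7.60 to 8.36 (median 8.22) and at 7.67, 7.39, 7.32 and 7.45 (-0.60 ± 0.12, adjusted p = 0.0192), and overlapped at the same wild-type mice, at 7.60 and 7.67. The other 20 of 22 measured genes of glutathione and antioxidant defence did not pass, and the median was 0.02. Catalase, Cat, which splits hydrogen peroxide in peroxisomes, had a difference of 0.55 ± 0.14 (adjusted p = 0.0623). Srxn1 and Keap1, an enzyme that repairs peroxiredoxins and the sensor that restrains NRF2, had differences of -0.22 ± 0.08 and -0.20 ± 0.09.

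**Figure D3:**
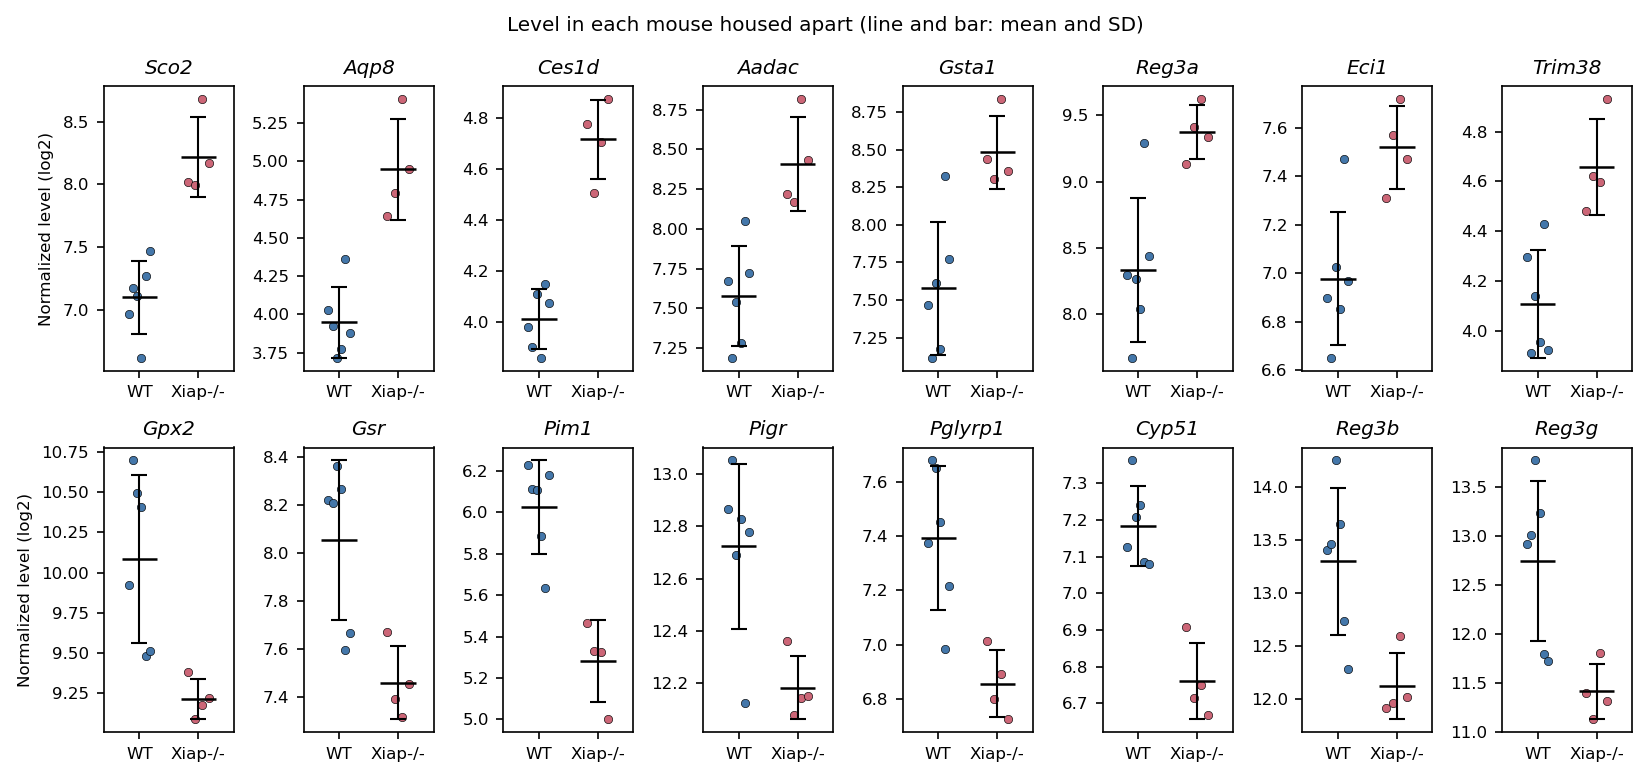
Normalized level (log2, vertical axes with their own ranges) of 16 genes in each of the 6 wild-type (blue) and 4 Xiap-/- mice (red) housed apart; lines and bars are the group mean and SD. Sco2, Aqp8, Ces1d, Aadac and Trim38 are separated upwards and Gpx2, Pim1 and Cyp51 downwards, while Reg3a, Eci1, Gsr, Pigr, Pglyrp1, Reg3b and Reg3g overlap and Gsta1 is joined by a single wild-type mouse.

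Enzymes of alcohol and retinoid turnover rose at 3 of 11 measured members, with a list median of 0.20. Aldh1a1, which makes retinoic acid from retinal, lay at 8.03 to 8.93 (median 8.31) in wild-type mice and at 9.14, 9.01, 9.31 and 9.16 in Xiap-/- mice (genotype difference 0.71 ± 0.16, limma adjusted p = 0.0415). The alcohol dehydrogenases Adh1 (0.52 ± 0.12, adjusted p = 0.0492) and Adh4 (0.43 ± 0.09, adjusted p = 0.0263) lie 124.8 kb apart on chromosome 3 and both rose. Rdh7, a retinol dehydrogenase, had a difference of 0.70 ± 0.17 that did not pass (adjusted p = 0.0684). Dhrs4, a reductase of carbonyls and retinal in no list used here, rose by 0.48 ± 0.11 (adjusted p = 0.0411).

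Fatty acid oxidation genes and other targets of the fatty acid sensor PPAR lay above 0 at 26 of 28 measured members (median 0.25), and 1 rose. This was Eci1, an isomerase of mitochondrial fatty acid oxidation, at 6.65 to 7.47 (median 6.93) in wild-type mice and 7.31, 7.57, 7.72 and 7.47 in Xiap-/- mice (genotype difference 0.54 ± 0.12, limma adjusted p = 0.0281). Wild-type mouse 5, at 7.47, stood among the Xiap-/- mice. Hadha, Etfdh and Ehhadh, 3 further enzymes of the pathway, had differences of 0.33, 0.33 and 0.41, none passing. Angptl4, a secreted inhibitor of lipoprotein lipase and a classical PPAR target, had the list's highest difference but also a wide error (0.84 ± 0.23, adjusted p = 0.107). Its co-housed difference was 1.06, with an unadjusted p of 0.00023 and no overlap between genotypes there. Outside the list, 2 further genes of lipid metabolism also rose: Hsd17b13, a dehydrogenase of lipid droplets, by 0.53 ± 0.12, and Coq8a, needed for coenzyme Q synthesis, by 0.45 ± 0.09.

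Of 25 measured cholesterol synthesis genes 2 fell, and 21 had differences below 0 (median -0.14). Cyp51, which removes a methyl group from lanosterol, lay at 7.08 to 7.36 (median 7.17) in wild-type mice and at 6.91, 6.71, 6.75 and 6.67 in Xiap-/- mice, without overlap (difference -0.42 ± 0.09, limma adjusted p = 0.0192). Sqle, which makes the epoxide of squalene, lay at 6.51 to 7.10 and at 6.57, 6.23, 6.50 and 6.32, and overlapped at its lowest wild-type mouse (-0.44 ± 0.10, adjusted p = 0.0492). The synthesis enzymes Msmo1 and Mvd had differences of -0.31 and -0.32 and did not pass. Wild-type mouse 6 was the lowest wild-type mouse for both genes that fell, at 7.08 for Cyp51 and 6.51 for Sqle. Mouse 5 was next for Cyp51, at 7.09, and lay at 6.79 for Sqle, just above mouse 1 at 6.78.

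The 3 secreted lectins of the Reg3 family, which bind bacterial cell walls, did not move together. Reg3a (chromosome 6, 78380709 to 78383827) lay at 7.67 to 9.29 (median 8.28) in wild-type mice and at 9.13, 9.41, 9.62 and 9.34 in Xiap-/- mice (genotype difference 1.04 ± 0.22, limma adjusted p = 0.044). Its neighbour Reg3b lay at 12.28 to 14.25 (median 13.44) in wild-type mice and at 11.91, 11.97, 12.59 and 12.02 in Xiap-/- mice (-1.17 ± 0.27, adjusted p = 0.0599). Reg3g lay at 11.73 to 13.77 (median 12.96) and at 11.40, 11.13, 11.81 and 11.31 (-1.33 ± 0.31, adjusted p = 0.0655). Wild-type mice 5 and 6 had the lowest wild-type levels of Reg3b, at 12.73 and 12.28, and of Reg3g, at 11.80 and 11.73. Mouse 5 also had the highest wild-type level of Reg3a. Without wild-type mouse 5, when 697 genes passed in all, the adjusted p was 2.3e-05 for Reg3a, 0.0115 for Reg3b and 0.00537 for Reg3g. Of the 20 fits that leave out 1 library, Reg3a passed in 7 and Reg3b and Reg3g in 2 each. With the depth proxy as covariate, the limma adjusted p was 0.796 for each of the 3. Reg4, a lectin of enteroendocrine and deep crypt secretory cells, rose by 0.69 ± 0.14 (adjusted p = 0.0192) without overlap.

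Of 14 measured epithelial defence genes that microbes induce, 12 had differences below 0 and the median was -0.54, with Reg3a rising and Pigr and Pglyrp1 falling. Pigr, which carries IgA through the epithelium, lay at 12.12 to 13.05 (median 12.80) in wild-type mice and at 12.36, 12.08, 12.15 and 12.15 in Xiap-/- mice. Wild-type mouse 5 had the lowest wild-type level, inside the Xiap-/- range (difference -0.54 ± 0.13, limma adjusted p = 0.0492). Pglyrp1, a secreted peptidoglycan binder, lay at 6.98 to 7.68 (median 7.41) and at 7.01, 6.80, 6.89 and 6.72 (-0.54 ± 0.11, adjusted p = 0.0192). The peroxide-making oxidase Duox2 lay at 5.18 to 6.64 (median 6.30) in wild-type mice and at 5.12, 4.88, 4.78 and 4.96 in Xiap-/- mice. Its maturation factor Duoxa2 lay at 5.06 to 6.75 (median 6.12) and at 4.78, 4.34, 4.75 and 4.71. Both were separated between genotypes, yet neither passed (-1.08 ± 0.26, adjusted p = 0.0722, and -1.26 ± 0.28, adjusted p = 0.0599). The acute phase protein Saa1, chosen after its values were seen, had the lowest difference of the list, -1.86 ± 0.56 (adjusted p = 0.136). Its wild-type values ran from 4.86 to 8.12, against 5.01, 4.71, 5.00 and 4.94 in Xiap-/- mice. Tnf, the cytokine, did not reach the minimum and has no test.

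No gene of the immune cell lists passed. The 4 measured of 10 B and plasma cell genes were all below 0 (median -0.49), and none passed (1 at an unadjusted p under 0.05). Igha, the IgA heavy chain, had a difference of -0.87 ± 0.33 (limma adjusted p = 0.225). The mean of the list ran from 3.84 to 4.77 in wild-type mice and from 3.83 to 4.07 in Xiap-/- mice. Wild-type mice 5 and 6 had the lowest wild-type means, 3.84 and 4.01, within the Xiap-/- range, and the other 4 lay at 4.54 to 4.77. The same 2 mice had the lowest wild-type levels of Reg3b, Reg3g, Duox2 (5.18 and 5.19), Gpx2 and Gsr. The list's part in the values of other genes was not tested. Of 18 measured antigen presentation genes 16 lay below 0 (median -0.21), and by limma 0 passed. At an unadjusted p under 0.05, which 15.8% of all genes reached, 3 were lower, with the peptide loading protein Tapbp at -0.31 ± 0.09 (adjusted p = 0.107). Interferon response genes had a median of -0.19 over 15 members and T cell genes one of -0.01 over 16, with no member of either list passing. At an unadjusted p under 0.05 stood 3 lower and 1 higher, in that order, against the same 15.8% of all genes.

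Among 11 measured genes of STAT3 signalling, the kinase Pim1 fell and 10 did not pass (median -0.18). Pim1, which is induced by cytokines through STAT factors, lay at 5.63 to 6.23 (median 6.11) in wild-type mice and at 5.47, 5.33, 5.32 and 5.00 in Xiap-/- mice (genotype difference -0.74 ± 0.12, limma adjusted p = 0.000686). Wild-type mouse 5 was the lowest wild-type mouse here too, still above the Xiap-/- mice. Socs3, the feedback inhibitor of the pathway, lay at 4.16 to 4.54 and at 3.82, 3.94, 4.09 and 3.88 (-0.49 ± 0.13, adjusted p = 0.0655), and Stat3 itself at 7.41 to 7.85 and at 7.34, 7.10, 7.28 and 7.30 (-0.35 ± 0.10, adjusted p = 0.0757). Neither overlapped between genotypes. NF-kB subunits and targets were below 0 at each of 11 measured members (median -0.16), with 0 passing by limma. At an unadjusted p under 0.05 (15.8% of all genes) were 2, the inhibitors Nfkbia and Nfkbiz, by -0.35 ± 0.12 and -0.31 ± 0.10.

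No member of the list of XIAP, its partners and cell death genes passed. Of 25 measured members none passed by limma, 16 lay below 0, and the median was -0.07. At an unadjusted p under 0.05, 4 were lower, Xiap itself among them, which the list contains. That is near the 15.8% of all genes that reached this p. The pore-forming protein Bak1 had a difference of -0.37 ± 0.10 (limma adjusted p = 0.0788) and Tab2, an adaptor that XIAP signalling uses on the way to NF-kB, one of -0.36 ± 0.11 (adjusted p = 0.102). Trim38, a ubiquitin ligase that restrains inflammatory signalling and is in no list used here, rose instead. It lay at 3.91 to 4.43 (median 4.05) in wild-type mice and at 4.48, 4.62, 4.60 and 4.93 in Xiap-/- mice (0.55 ± 0.12, adjusted p = 0.0263).

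Secretory cells of the crypt were represented unevenly. Of 16 measured enteroendocrine genes 14 lay above 0 (median 0.19) and 2 rose, Reg4 and the granule protein Chgb, at 7.54 to 7.98 in wild-type mice and 8.08, 8.17, 8.17 and 8.26 in Xiap-/- mice (0.47 ± 0.11, limma adjusted p = 0.0469). The hormone gene Gcg and the serotonin-making enzyme Tph1 had differences of 0.30 and 0.27. The 14 measured Paneth cell products had a median of 0.27, and none passed (5 higher at an unadjusted p under 0.05). Ang4, an antimicrobial ribonuclease, lay at 8.72 to 9.29 and at 9.57, 9.82, 9.14 and 9.26 (0.53 ± 0.15, adjusted p = 0.0864), and lysozyme, Lyz1, had a difference of 0.24 ± 0.13. The defensin Defa24 and the protease Mmp7, which activates defensins, had differences of 0.02 ± 0.14 and -0.00 ± 0.19, smaller than their errors. All 8 measured tuft cell genes of 17 lay above 0 (median 0.19), with 0 passing and 4 higher at an unadjusted p under 0.05, and with the leukotriene synthase Ltc4s at 0.32 ± 0.10. Goblet cell, stem cell and cell division genes had medians of 0.03, 0.00 and -0.04 and no member that passed. At an unadjusted p under 0.05 stood 0, 2 and 2 of their 16, 12 and 23 measured members, against 15.8% of all genes. Those of the stem cell list lay on opposite sides, the stem cell factor Ascl2 at 0.39 ± 0.10 (adjusted p = 0.0688) and Prom1 at -0.34 ± 0.11 (adjusted p = 0.138).

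**Figure D4:**
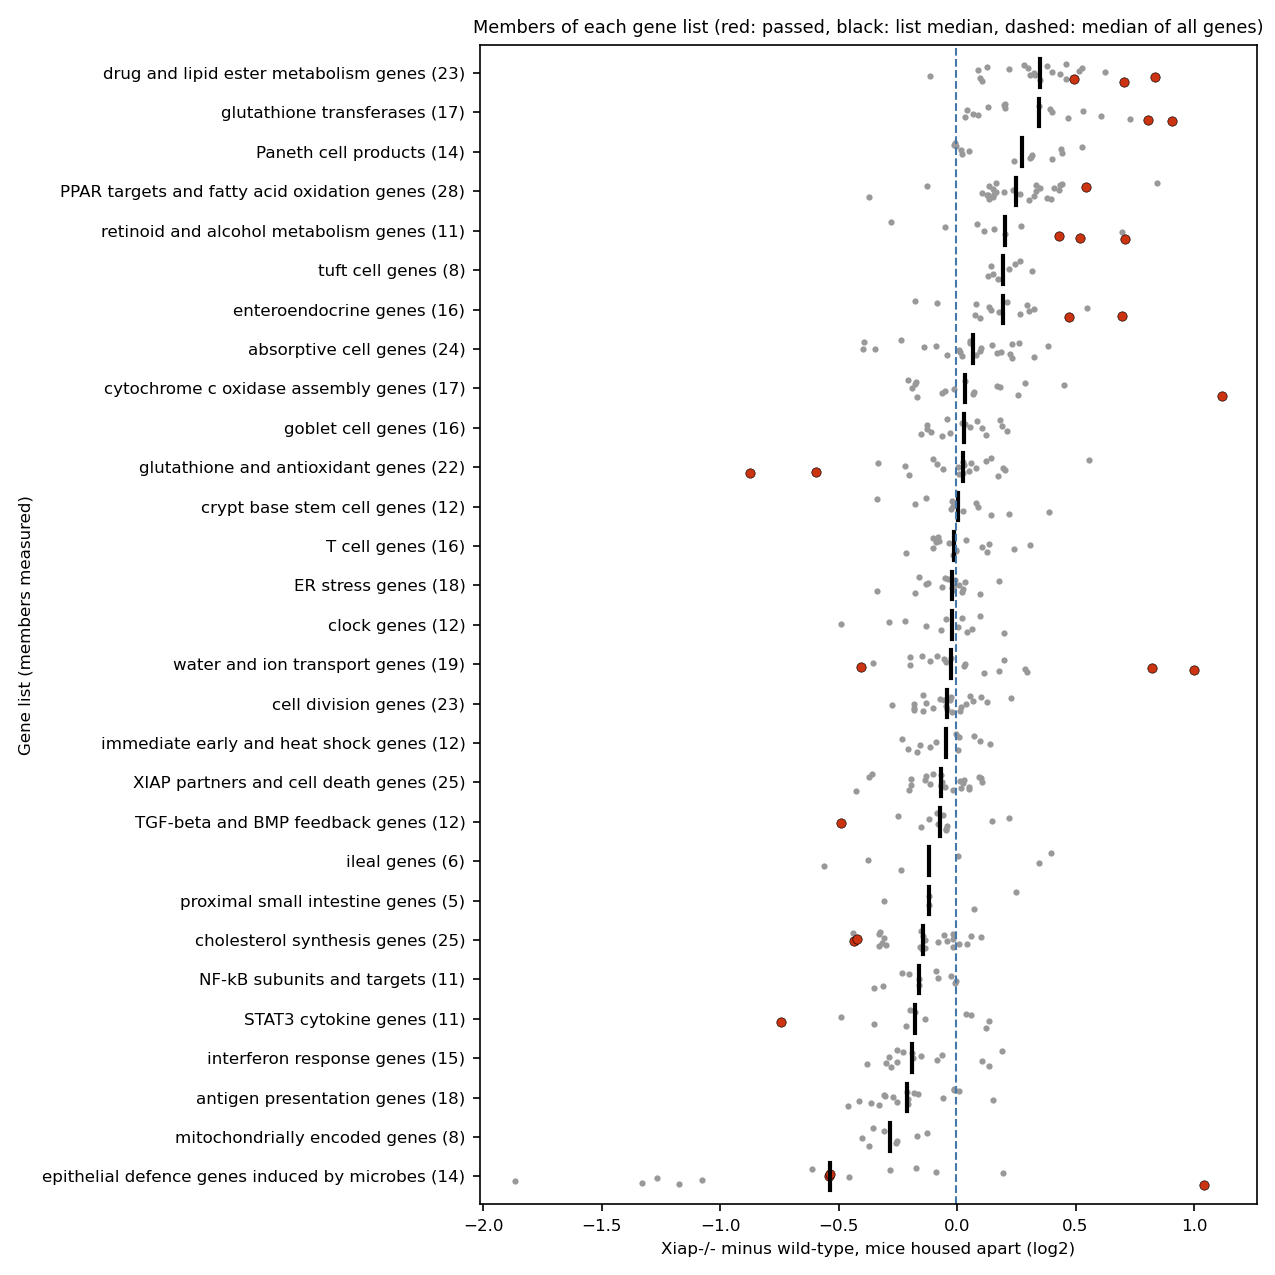
Difference between Xiap-/- and wild-type mice housed apart (horizontal axis, log2) for each measured member of the gene lists with 5 or more measured genes (rows, number of members in brackets); red points passed, black bars are list medians and the dashed line is the median of all genes. Drug and lipid ester metabolism genes and glutathione transferases stand at the top, with medians of 0.35, and epithelial defence genes at the bottom, with a median of -0.54 and members spread from -1.86 to 1.04.

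Of the 43 genes that passed, 18 were in no list. The rises among them include Tstd1, with a sulfurtransferase domain (0.63 ± 0.12), Plekhf1, an endosomal phosphoinositide binder (0.55 ± 0.12), Rnase1, a secreted ribonuclease (0.52 ± 0.11), the actin-severing protein Scin (0.51 ± 0.11) and B4galt5, which makes lactosylceramide (0.43 ± 0.10). Hsd3b3, a steroid dehydrogenase, rose by 0.43 ± 0.09, Yaf2, a partner of polycomb proteins, by 0.38 ± 0.09, and Bmp1, a procollagen proteinase, by 0.35 ± 0.09. Ttr, a carrier of thyroid hormone and retinol kept in the hepatocyte list, rose by 0.42 ± 0.10. Among the falls are the protease Lgmn (-0.42 ± 0.10), the adaptor subunit Ap5b1 (-0.41 ± 0.09) and the kinase Lrrk1 (-0.45 ± 0.10). Aldh4a1, of mitochondrial proline breakdown, fell by 0.64 on the log2 scale and the epithelial kinase Ptk6 by 0.51. Pmepa1, a feedback inhibitor of TGF-beta signalling that was in a list, fell by 0.49. The other 11 of 12 measured genes of that list, TGF-beta and BMP feedback genes, did not pass (list median -0.07). Tstd1 overlaps Usf1 on the same strand, whose difference was -0.28, and Coq8a, Cyp51 and Gpx2 overlap genes on the opposite strand. Whether counting used strand is not given in the sources used here.

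Just outside the threshold lay Gm13341 (-0.57, limma adjusted p = 0.0508), the lipase Pnliprp2 (0.75, 0.0508), Rgn (0.39, 0.0532), Gnl1 (-0.36, 0.0543), Epn1 (-0.39, 0.0565), Bche (0.47, 0.0576), Pcbd1 (0.45, 0.0576) and Hsd17b4 (0.49, 0.0576). Barx2, an epithelial transcription factor, and Dmbt1, a mucosal scavenger protein, followed with -0.62 and -0.69, each at an adjusted p of 0.0596. At the same adjusted p stood Actb, chosen after its values were seen, at 13.21 to 13.76 in wild-type mice and 13.19, 12.91, 13.22 and 12.91 in Xiap-/- mice (-0.48 ± 0.12). The last genes inside shared a limma adjusted p of 0.0492, with Yaf2, Pigr, Bmp1 and Sqle among them.

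Co-housed mice entered the fit above through the minimum mean and the shared estimate of spread, but not through the means compared. In a fit of the 10 libraries housed apart alone, 12 genes passed, 9 of the 43 among them. Between genotypes of co-housed mice the same genes differed less. The signs agreed for 36 of the 43 genes (83.7%, against 62.5% of all tested genes), for 22 of the 28 rises and 14 of the 15 falls. All 43 differences were smaller in size than in mice housed apart, where the genes had been picked for passing. The median of the rises was 0.54 apart and 0.15 co-housed, and that of the falls -0.49 and -0.15. None of the 43 passed co-housed, where 3 genes passed in all (0.0315%) and 1144 (12%) had an unadjusted p under 0.05, 9 of the 43 among them. Sco2 had a co-housed difference of 0.00, Trim38 -0.00, Pigr 0.03 and Reg3a 0.16.

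The co-housed differences furthest from 0 were those of Sgk1 (0.53), Gpx2 (-0.49), Ptk6 (-0.47), Pim1 (-0.45) and Aqp8 (0.40). Of the 43 genes, only Gpx2 was separated between genotypes in both housings (294 of all genes, 3.09%, were separated co-housed), at 10.45, 10.38, 10.46, 10.45 and 10.33 in co-housed wild-type mice and 9.63, 10.20, 10.08, 9.90 and 9.82 in co-housed Xiap-/- mice. The difference between the genotype differences of the 2 housings was itself tested. It reached an unadjusted p under 0.05 for 31 of the 43 genes and for 671 of all genes (7.05%), and passed for none of the 43 (smallest limma adjusted p = 0.336). The 43 were picked for their housed-apart difference, which is 1 side of this contrast, so their higher share adds no support. A single gene of all passed that test (0.0105%), the heat shock gene Hspa1b, whose difference was 0.14 apart and 1.23 co-housed. Its wild-type means, 3.25 apart and 3.19 co-housed, were below the minimum mean. Its Xiap-/- means were 3.39 apart, just above the minimum, and 4.42 co-housed. Hspa1b was thus tested mainly through the co-housed Xiap-/- mice, the group in which it was high. None of the 43 genes that passed in mice housed apart is therefore shown to depend on housing.

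**Figure D5:**
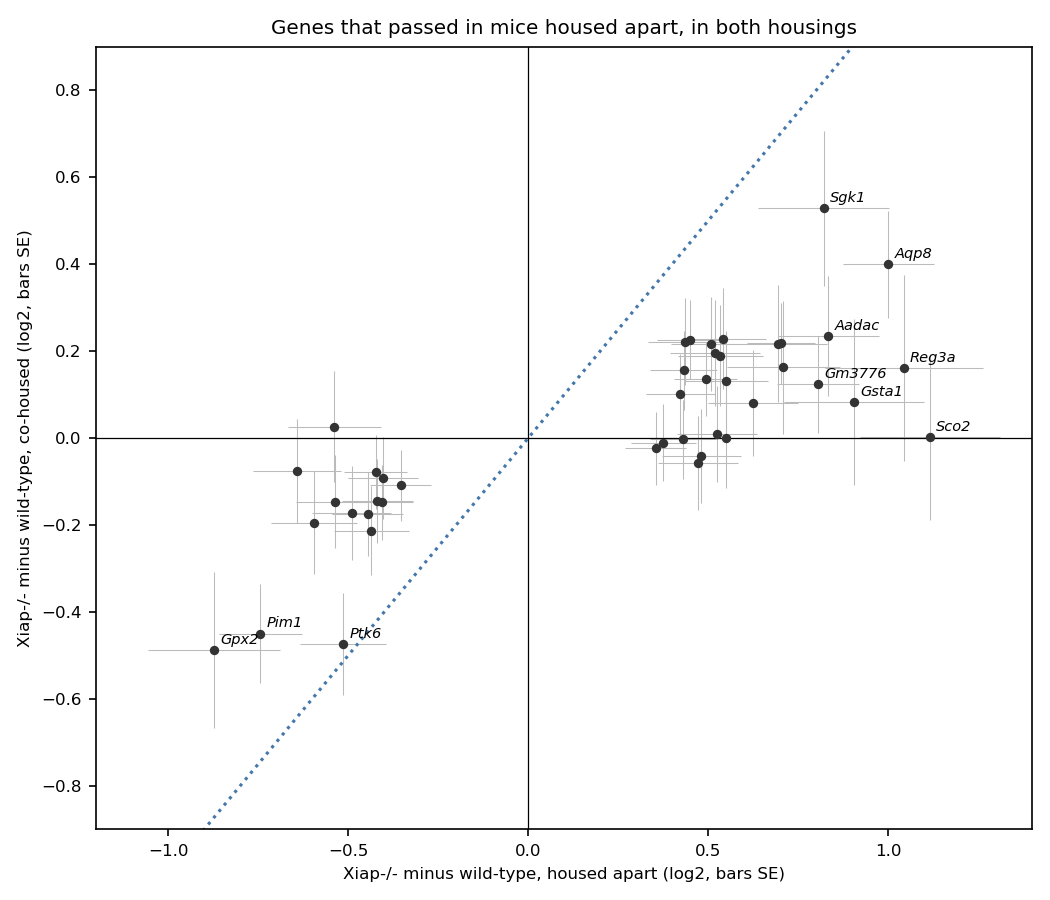
Difference between Xiap-/- and wild-type mice (log2, with SE bars) for the 43 genes that passed in mice housed apart, with the housed-apart value on the horizontal and the co-housed value on the vertical axis; the dotted line marks equal values. For each of the 43 points the co-housed difference is smaller in size than the housed-apart one, with Ptk6 close to the dotted line and Sco2 at 0.00 co-housed.

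Promoters of the genes that passed were searched for 4 short motifs, on both strands, in RefSeq windows from 250 bases before to 50 after each start (GRCm38.p6). Of the 43 genes 33 were in that table, 24 that rose and 9 that fell. The STAT site TTCNNNGAA was found at 5 of the 24 (Gsta1, Gm3776, Sgk1, Trim38 and Rnase1) and at 1 of the 9 (Pigr), against 8.30% of all promoters and 8.19% of the tested genes in the table. Gsta1 and Gm3776, nearly identical, are 2 of the 5. The site reads the same on both strands. The antioxidant response element TGACNNNGC was found at Tstd1, Hsd17b13 and Lrrk1 (12.4% of all promoters and 17.2% of tested genes), the HNF4 site CAAAGTCCA at Hsd3b3 (0.475% and 0.637%) and the sterol response element TCACNCCAC at none (1.24% and 1.37%). A match is a run of letters, and these shares describe the windows only.

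For comparison with the windows of Gsta1 and Gm3776, 60 bases around the STAT site are shown for 2 genes lower in Xiap-/- mice that did not pass, Reg3b (chr6:78370730-78370789, plus strand) and Socs3 (chr11:117969487-117969546, minus strand), and for 2 that rose, Sgk1 (chr10:21881935-21881994, plus strand) and Rnase1 (chr14:51146790-51146849, minus strand). All are from RefSeq on GRCm38.p6, 5′ to 3′ on the strand of the gene, with the site in capitals.

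Reg3b: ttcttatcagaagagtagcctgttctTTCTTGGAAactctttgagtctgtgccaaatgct

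Socs3: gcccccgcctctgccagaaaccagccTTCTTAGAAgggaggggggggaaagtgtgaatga

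Sgk1: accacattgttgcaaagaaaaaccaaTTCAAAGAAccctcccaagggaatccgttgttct

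Rnase1: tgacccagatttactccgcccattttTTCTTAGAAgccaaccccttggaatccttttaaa

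Counted from the RefSeq start of transcription, the first base of the site lies at -129 in Reg3b, -154 in Socs3, -223 in Sgk1, -56 in Rnase1, -162 in Gsta1 and -149 in Gm3776. GENCODE M21 places Reg3b at 78370657 to 78373466 on chromosome 6 and Socs3 at 117966079 to 117970047 on chromosome 11. The windows shown for these genes lie inside those bounds, so their sites are upstream of the RefSeq start only. Sgk1, Rnase1, Gsta1 and Gm3776 rose, while the differences of Reg3b and Socs3, -1.17 and -0.49, lay below 0 and did not pass.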

How the data were processed

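The authors deposited normalized values on a log2 scale for 20 libraries, with no counts. The submitters' processing notes name DESeq2 1.18.1 and build GRCm38.p6; the transformation and the handling of strand are not given in the sources used here. The values were analysed as deposited, without a pseudocount. The limma 3.58.1 fit (R 4.3.3) had 4 group means over 20 libraries (16 residual degrees of freedom), robust empirical Bayes with a variance trend, genes with a mean of at least log2 of 10, two-sided tests, and Benjamini-Hochberg adjustment over all tested genes. The depth of each library is unknown, so no counting interval or floor is given. The model was tested on simulated data. The mice, gene lists, motifs and rule for naming genes were chosen with earlier results of these data known. The rule names each gene that passed, the 10 next by adjusted p, list members with the smallest p or highest mean, and a few fixed genes; not every such gene is printed, and some withheld items are not reported here. Positions are from GENCODE M21 on GRCm38, where 97.8% of symbols were found; promoters are from RefSeq. For 24 symbols turned into dates (12 tested) no gene is named. Alternatives covered the filter, scaling, weights, covariates, the replicate number as a block and each library left out.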

Additional observations from a re-analysis of the deposited data

Results flagged for a closer look

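In 9 groups of mice out of 200 examined, a single mouse stood apart from the rest by Dixon's criterion, which chance meets in about 1 group in 20. Among Xiap-/- mice, mouse 2 had a Reg4 level of 8.75 (others 8.37 to 8.41) and a Duoxa2 level of 4.34 (4.71 to 4.78). Mouse 3 had a Tstd1 level of 8.20 (7.80 to 7.87) and a Reg3b level of 12.59 (11.91 to 12.02), and mouse 1 had a Rgn level of 3.67 (4.10 to 4.15). Among wild-type mice, mouse 4 had a Ugt2b36 level of 3.88 (4.23 to 4.32), mouse 2 a Socs3 level of 4.16 (4.40 to 4.54) and mouse 3 an Nfkbia level of 9.04 (8.31 to 8.58). Wild-type mouse 5 had 14.9% of rare genes above their plateau, against 4.58% to 7.55% in the other 5.

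The genotype difference of the heat shock gene Hspa1b was smaller in mice housed apart than in co-housed mice (difference of the differences -1.10, limma adjusted p = 0.00254). Mice housed apart lay at 3.25, 3.33, 3.33 and 3.64 (Xiap-/-) and at 3.03 to 3.45 (wild-type). Co-housed Xiap-/- mice lay at 4.47, 4.30, 4.35, 4.00 and 5.00 and co-housed wild-type mice at 3.10 to 3.27. The wild-type means were below the minimum mean in each housing, so Hspa1b was tested mainly through the co-housed Xiap-/- mice.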

How the results depend on the processing

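The 43 genes that passed in mice housed apart became 28 at a minimum mean of log2 of 20, 12 in a fit of the 10 libraries alone (9 of the 43 among them), 65 with plain empirical Bayes, 385 with array quality weights, 3 with the depth proxy as covariate and 212 with the absorptive gene mean as covariate, the last added after seeing the data. No filter gave 48 (35 of the 43), centring 33 and quantile normalization 46 (38 of the 43). Leaving out single libraries gave 9 to 697. The co-housed count of 3 became 0 at log2 of 20, 10 with no filter, 142 in its own 10 libraries, 159 with array weights, 42 with the absorptive covariate and 1 to 12 with libraries left out. The single gene of the difference of differences became 0 at log2 of 20 and 4 with array weights. At log2 of 20 that gene, Hspa1b, with a mean of 3.56 over all libraries, is below the minimum and has no test. The deviations of same-numbered mice correlated weakly (0.0748, 0.0878, 0.235 and 0.246), which cannot settle whether the numbers pair them. With the replicate number as a block, 913 genes passed apart, all 43 among them, 101 co-housed and 105 for the difference of differences; wild-type mice 5 and 6 have no same-numbered Xiap-/- mouse and drop out of that contrast. Of the 4 Xiap-/- mice, 1 correlated best with the wild-type mouse of its number, but wild-type mouse 4 was the best match of Xiap-/- mice 1, 2 and 4 alike.

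Among the 99 genes whose housed-apart differences were recomputed under these settings, only Defa24 and Mmp7 changed sign; co-housed differences of single genes and those of overlapping neighbours such as Ncaph2 were not recomputed. Defa24 ran from -0.0637 to 0.0616 with single libraries left out, and Mmp7 from -0.114 to 0.118, with 0.0902 under array weights and 0.015 with the absorptive covariate. The difference in the depth proxy was 4.37 to 11.9 percentage points with single libraries left out, and its exact permutation p then exceeded 0.05 in 7 of 10 cases. By the exact permutation test the Xiap difference kept its direction and its side of the threshold. By limma its adjusted p was 0.0599. It passed in 2 of the 20 fits that leave out 1 library, among them that without wild-type mouse 5 (limma adjusted p = 0.00675). Other settings in which Xiap passed include the block and the absorptive covariate. The cause of these changes was not tested.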
